A study of Danio rerio with 6 samples.

Results

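The genes described here are pdgfaa (ENSDARG00000055505) and pdgfba (ENSDARG00000086778), a pair of zebrafish genes for platelet-derived growth factors (PDGFs). They were taken by their identifiers, 2 of the 31540 genes in the count table, and both were found. RNA was sequenced from ovarian follicles of wild-type AB fish at the primary growth (PG) stage and at the pre-vitellogenic (PV) stage, with 3 libraries per stage, to follow gene expression through follicle activation. According to the methods, the ovaries of 3 females were pooled for each of 3 groups of fish, and follicles of both stages came from the same groups, separated by sieving on size. Whole follicles were used, so each library holds RNA of the oocyte, of the follicle cells around it and of any vessel, theca or stromal cells that stayed attached. In such material, fewer cells of a type and less RNA per cell cannot be told apart.

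PDGFs are secreted as dimers of A, B, C or D chains and act on tyrosine kinase receptors of the alpha and beta type. In mammals the A chain dimer binds the alpha receptor, whereas the B chain dimer binds both, and B chain ligand from endothelium recruits mural cells to vessels. In the mammalian ovary the receptors are known from theca and stromal cells. pdgfaa encodes an A chain and pdgfba a B chain.

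The libraries held between 14492086 and 36603108 counts, with PG replicate 3 the shallowest. Low counts tended to be even numbers. Summed over the 6 libraries, a count of 2 was found 3498 times and a count of 4 was found 3504 times, against 2521 times for a count of 1, 2816 for 3 and 1875 for 5. The reads were paired, so the lowest counts may stand for very few sequenced fragments. Intervals given for counts cover counting error only and treat each count as independent. Oocyte markers were present in every library of both stages, with gdf9, the gene of an oocyte growth factor, at 1300 ± 135 normalized counts at the PG stage and at 1260 ± 22.7 at the PV stage (SD, n = 3 libraries). Not all were this constant. The marker of highest mean count, zp3b, fell from 78500 ± 3110 to 30500 ± 1710. By the rule for DEGs given below, 4 of 9 tested oocyte markers were lower at the PV stage and none higher, beside 5.97% of all tested genes lower.

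Both ligand genes had few counts in PG follicles and more in every PV library. For pdgfaa, PG replicates 1, 2 and 3 held 6, 3 and 0 counts, while PV replicates 1, 2 and 3 held 141, 69 and 77. After division by the authors' size factors, the PG values of pdgfaa were 4.22, 2.66 and 0.0 normalized counts, and its PV values were 111, 86.9 and 67.0. Every PV library therefore lay far above every PG library, and PG replicate 3 was the only library without a count. For pdgfba the PG libraries held 21, 7 and 2 counts and the PV libraries 87, 72 and 80. These correspond to 14.8, 6.22 and 3.61 normalized counts in PG follicles and to 68.3, 90.7 and 69.6 in PV follicles. The stages did not overlap for this gene either, but its PG values were not all near 0, and PG replicate 1 stood above the other two. That 3 PV values exceeded all 3 PG values was common in these libraries, as 36.5% of the 15899 tested genes showed it.

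**Figure D1:**
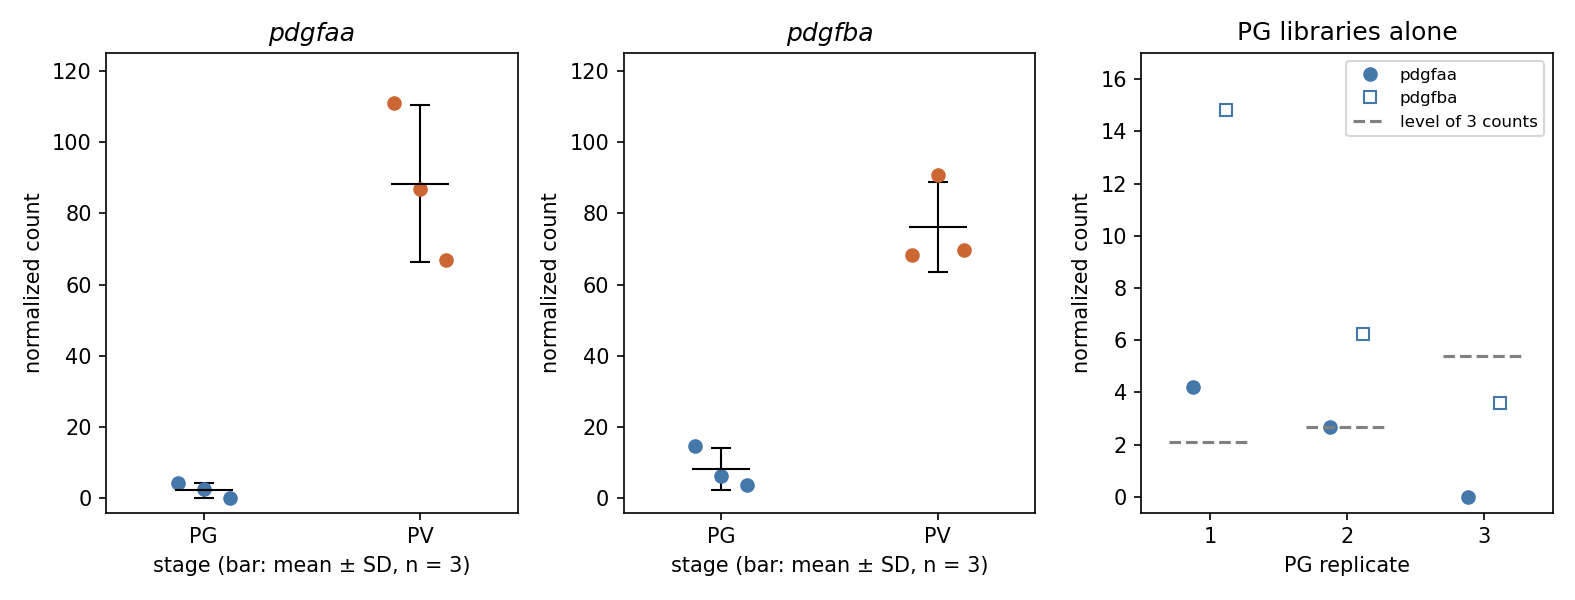
Normalized counts of pdgfaa and pdgfba in each library, with points for libraries and bars for the mean ± SD (n = 3), and on the right the PG libraries alone with dashed lines at the level of 3 counts. PV values lie between 67.0 and 111, PG values between 0.0 and 14.8, and in PG replicate 3 both genes lie below the dashed line at 5.41.

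Detection in PG follicles differed between the genes. pdgfaa was detected with at least 1 count in 2 of the 3 PG libraries and pdgfba in all 3. The missing value of pdgfaa was in the shallowest library, where 3 counts, taken as the most that a count of 0 allows, correspond to 0.207 CPM (counts per 1000000 counts of the library). This limit is above the 0.164 and 0.103 CPM found in PG replicates 1 and 2, so the absence of pdgfaa from PG replicate 3 does not set it apart from the other PG libraries. At the mean level of the other PG libraries, 1.98 counts of pdgfaa would have been expected there. At the mean PV level the expected number would have been 49.7 counts. For pdgfba, PG replicate 3 held 2 counts where 6.16 would have been expected from the other PG libraries and 41.4 from PV follicles.

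How scarce pdgfaa was in PG follicles cannot be judged from the tested genes alone. Its highest PG count was 6, and 223 of 15899 tested genes, or 1.4%, had no more than this in any PG library. The expression filter sets this share, since a gene so low in PG passes it only through its PV counts. For the same reason, that 216 of these were called higher in PV follicles is no separate result. Of all 31540 genes, 11949, 12460 and 14597 had no count in PG replicates 1, 2 and 3. The highest PG count of pdgfba was 21, and 1385 tested genes, or 8.71%, had no more. This share too depends on the filter.

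Both genes were higher at the PV stage in the quasi-likelihood test of edgeR, with p-values adjusted by Benjamini-Hochberg over all tested genes. Differentially expressed genes (DEGs) were those whose adjusted p was at most 0.05 and whose log2 fold change was at least 1, up or down. By this rule 13.2% of all tested genes were higher in PV follicles, so a rise as such was common. The mean normalized count of pdgfaa went from 2.30 ± 2.14 to 88.2 ± 21.9 (SD, n = 3 libraries per stage). Its log2 fold change was 4.90 with an adjusted p of 9.87e-06 from edgeR and a standard error of 0.47, derived from the test statistic. The fitted change corresponds to 29.8-fold, with a 95% interval from 14.3- to 62.0-fold. The mean of pdgfba went from 8.20 ± 5.84 to 76.2 ± 12.6 normalized counts (SD, n = 3 libraries per stage), with a log2 fold change of 3.02, a standard error of 0.41 and an adjusted p of 0.000105 from edgeR. This corresponds to 8.10-fold, with a 95% interval from 4.32- to 15.2-fold. The 2105 genes called higher had a median log2 fold change of 1.70. Of them 58 had a larger log2 fold change than pdgfaa, 37 of which had no PG count at all, where the fitted size depends on the model's prior count. A larger log2 fold change than that of pdgfba was found for 312, or 14.8%, of the genes called higher.

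**Figure D2:**
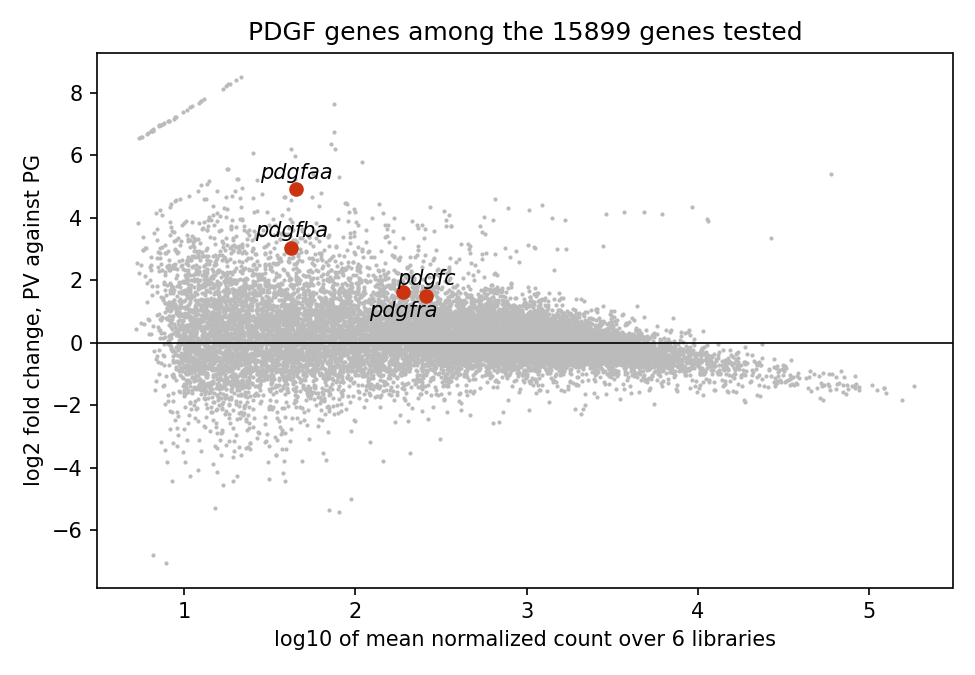
Log2 fold change of PV against PG follicles for all 15899 tested genes, plotted against the log10 of the mean normalized count, with PDGF genes in red. At mean counts of 45.2 and 42.2, pdgfaa (4.90) and pdgfba (3.02) lie above pdgfra (1.61) and pdgfc (1.50), with 58 and 312 of the 2105 genes called higher above them.

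The size of both rises depended on PG replicate 1, the deepest library at 36603108 counts, which held 6 of the 9 PG counts of pdgfaa and 21 of the 30 PG counts of pdgfba. Without this library the log2 fold change was 5.55 for pdgfaa and 3.81 for pdgfba, and both remained DEGs in the edgeR fit. The PG levels of pdgfba spread over 4.15-fold between libraries, whereas its PV levels spread over 1.33-fold. For pdgfaa the PV levels spread over 1.65-fold, with the highest value in PV replicate 1, which held the lowest value of pdgfba. Summed over libraries and divided by the summed library sizes after TMM scaling, the counts gave a PV to PG ratio of 30.6 for pdgfaa. Its exact counting interval ran from 15.9 to 67.7, from 287 against 9 counts. For pdgfba the ratio was 7.66, with an interval from 5.22 to 11.6, from 239 against 30 counts.

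The ratio of the ligands to each other needs no scaling of the libraries, because both genes were counted in the same library. In PG replicates 1, 2 and 3, pdgfaa made up 22.2%, 30.0% and 0.0% of the counts of both genes. The exact 95% binomial intervals of these shares were wide, from 8.62 to 42.3%, from 6.67 to 65.2% and from 0.0 to 84.2%, the last resting on 2 counts. In PV replicates 1, 2 and 3 the share was 61.8%, 48.9% and 49.0%, with intervals from 55.2 to 68.2%, from 40.4 to 57.5% and from 41.0 to 57.1%. Every PV share was thus above every PG share. Over the summed counts, pdgfaa accounted for 9 of 39 counts or 23.1% in PG follicles (exact interval 11.1 to 39.3%) and for 287 of 526 or 54.6% in PV follicles (50.2 to 58.9%).

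**Figure D3:**
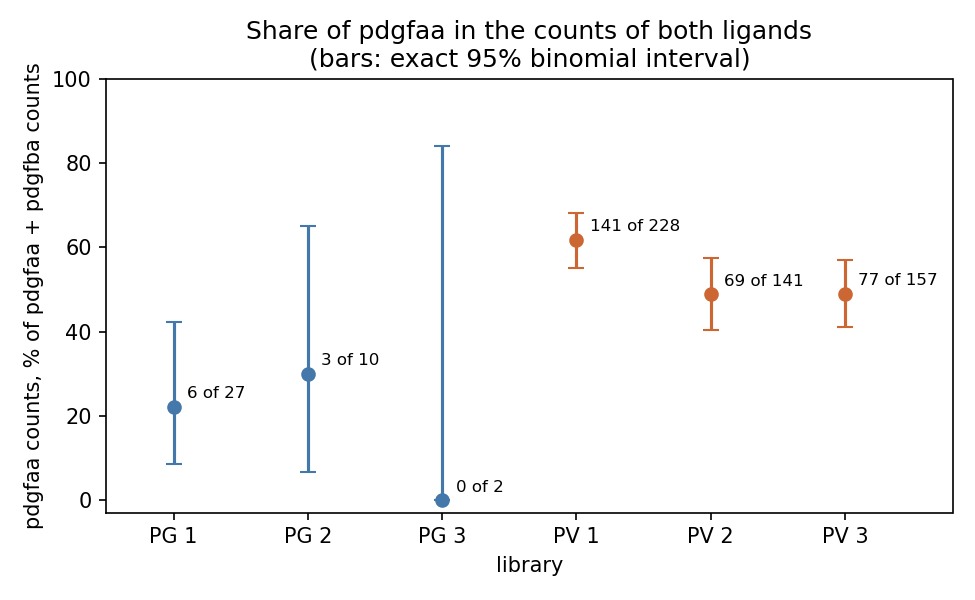
Share of pdgfaa in the counts of pdgfaa and pdgfba together in each of the 6 libraries, in percent, with exact 95% binomial intervals and the counts beside each point. The PG shares reach at most 30.0% and the PV shares are at least 48.9%, while the interval of PG replicate 3 covers most of the axis.

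The log2 ratio of pdgfaa to pdgfba, with 0.5 added to each count, was -1.73, -1.10 and -2.32 in the PG libraries and 0.69, -0.06 and -0.05 in the PV libraries. Its mean rose by 1.91, from -1.72 ± 0.61 to 0.19 ± 0.43 (SD, n = 3 each). An exact two-sided permutation test over the 6 libraries gave p = 0.1, the smallest this test can give with 3 against 3 libraries, so the test cannot reach 0.05. From the edgeR fit, the log2 fold change of pdgfaa exceeded that of pdgfba by 1.88, with a standard error of 0.62 if the estimates are taken as independent. The change in the ratio says nothing of which mRNA was more abundant in a stage, since counts grow with transcript length and no transcript lengths of the annotation were used here.

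Of the other ligand genes, pdgfc, which encodes a C chain that needs proteolytic release of its growth factor domain, was also a DEG. It held 157, 179 and 78 counts in PG and 492, 289 and 458 in PV libraries. Its mean normalized count rose from 137 ± 24.5 to 383 ± 17.3 (SD, n = 3 libraries per stage). The log2 fold change was 1.50 with standard error 0.13 and adjusted p = 5.23e-06 by edgeR. The 95% interval of this log2 fold change, from 1.20 to 1.79, lay below those of pdgfba (2.11 to 3.93) and pdgfaa (3.84 to 5.95). The second B chain gene, pdgfbb, held 18, 9 and 3 counts in PG and 11, 11 and 25 in PV libraries, and the stages overlapped. Its log2 fold change of 0.67 (standard error 0.55) had an adjusted p of 0.313 by edgeR, with a 95% interval from -0.56 to 1.89. Under scaling by oocyte markers its log2 fold change was 1.81 with an adjusted p of 0.0113 by edgeR, and it was then called, as the fourth ligand gene. The summed oocyte markers were lower at the PV stage, so this scaling raised genes in general. That sum is led by zp3b, buc and zar1, with log2 fold changes of -1.36, -1.08 and -1.70, and the scaling follows mainly these genes. The other markers changed by -1.32 (piwil1), -0.69 (figla), -0.16 (bmp15), -0.05 (gdf9), 0.04 (dazl) and 0.29 (ddx4). Under this scaling the median log2 fold change over all tested genes was 1.19, and 60.3% were called higher. With the main scaling, at the counts of pdgfbb a rise of the size seen for pdgfba lies outside the interval, whereas a smaller rise cannot be told from no change.

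The D chain gene pdgfd had the most counts of the ligand genes, with 699 ± 30.2 normalized counts at the PG stage and 495 ± 15.7 at the PV stage (SD, n = 3 libraries). Its log2 fold change of -0.51 had an adjusted p of 7.98e-05 by edgeR but a size under the threshold for a DEG, and it shrank to -0.09 when libraries were scaled by their totals and turned to 0.65 under scaling by oocyte markers. A gene that the name table calls PDGFA (ENSDARG00000098578) held 99, 71 and 38 counts in PG and 55, 34 and 62 in PV libraries. Its log2 fold change was -0.52, with a 95% interval from -1.01 to -0.03 and an adjusted p of 0.0610 by edgeR, and it turned to 0.63 under scaling by oocyte markers. That scaling moved the median log2 fold change of all tested genes from 0.03 to 1.19. Of the 6 ligand symbols sought, pdgfab had no match under its own name. Of the 5 listed ligand genes tested, 3 were called higher, beside 13.2% of all tested genes. Of these 3, pdgfaa and pdgfba are the genes described here, and pdgfc was the only other one. Counts and medians of the ligand genes therefore rest in part on this pair. None of the 5 was called lower by edgeR or by DESeq2, beside 5.97% of all tested genes, while 1 was lower at an unadjusted p under 0.05 in edgeR. Their median log2 fold change was 1.50, against 0.03 over all tested genes. With PDGFA counted as well, a choice made after its values were seen, 3 of 6 were called higher and 0 lower by edgeR and by DESeq2. Of these 6, 2 were then lower at an unadjusted p under 0.05 in edgeR, and the median log2 fold change was 1.08.

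**Figure D4:**
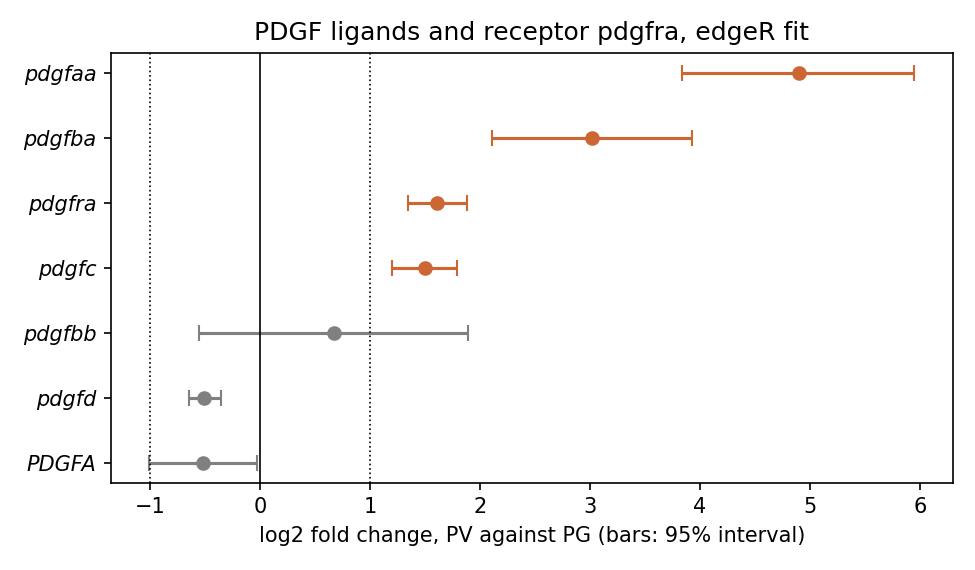
Log2 fold change of PV against PG follicles with its 95% interval from the edgeR fit, for the PDGF ligand genes and the receptor gene pdgfra, with DEGs in orange, other genes in grey and dotted lines at -1 and 1. The intervals of pdgfaa and pdgfba lie above that of pdgfc, and those of pdgfd and PDGFA lie below 0.

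Of the receptor genes, pdgfra, which encodes the alpha receptor, was counted 132, 99 and 56 times in PG and 348, 247 and 316 times in PV libraries. Its mean rose from 94.0 ± 6.63 to 286 ± 21.5 normalized counts (SD, n = 3 libraries per stage). The log2 fold change was 1.61 with standard error 0.12 and adjusted p = 1.59e-06 by edgeR. The receptor thus rose together with pdgfaa and pdgfba, by a smaller factor and from a level that was well counted in every PG library. Relative to pdgfra, pdgfaa went from 45.5, 30.3 and 0.0 counts per 1000 pdgfra counts in the PG libraries to 405, 279 and 244 in the PV libraries. For pdgfba the values were 159, 70.7 and 35.7 in PG and 250, 291 and 253 in PV libraries, so both ligands increased against the receptor in every PV library. The receptor-like gene pdgfrl held between 2 and 15 counts in each library and did not pass the expression filter. The beta receptor gene pdgfrb was not analysed here.

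The genes known to process or bind PDGFs showed no common direction. Of 13 symbols, 9 were matched and 8 genes were tested. Of these, 2 were called higher and none lower by edgeR or DESeq2, beside 13.2% of all tested genes called higher and 5.97% lower by edgeR. At an unadjusted p under 0.05 in edgeR, with no limit on size, 2 were lower, a count that stands without a background. Their median log2 fold change was -0.17. The genes that rose were furinb, for a proprotein convertase of the kind that cleaves A and B chain precursors in mammals, and sparc, for a matrix protein that binds PDGFs. The log2 fold change was 1.18 (standard error 0.11, adjusted p = 6.92e-06 by edgeR) for furinb and 1.37 (standard error 0.40, adjusted p = 0.0121 by edgeR) for sparc. The most abundant gene of this list, st14a, a matriptase gene whose mammalian counterpart releases the active C chain, changed by -0.14. The gene st14b, which was not on the list, was called higher with 1.31 (adjusted p = 0.000225 by edgeR). The listed gene plat changed by -1.42 (adjusted p = 0.0554 by edgeR) and was not called, with at most 39 counts in any library.

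Among genes of the signal transduction below the PDGF receptors, 25 of 34 symbols were matched and tested. Of these, 8 were called higher and none lower by edgeR, beside 13.2% of all tested genes called higher and 5.97% lower. DESeq2 called 7 higher and none lower, beside 9.48% of the genes it tested called higher. At an unadjusted p under 0.05 in edgeR, 18 were higher and 3 lower. The share of all tested genes at that cutoff is not given here, so these counts stand without a background. The median log2 fold change of the list was 0.34, against 0.03 over all tested genes. The largest change was in ptpn11b, a gene for the phosphatase SHP2, which docks on activated receptors. It held 4, 0 and 0 counts in PG and 30, 12 and 19 in PV libraries, and its log2 fold change was 3.78 with standard error 0.82. The adaptor gene grb2a followed with 1.93 (standard error 0.16), and pik3ca, for a catalytic subunit of PI3 kinase, with 1.72 (standard error 0.13). The other DEGs were the adaptor genes shc1 (1.62) and shc2 (1.21), the PI3 kinase subunit genes pik3r1 (1.22) and pik3r3b (1.03), and the Ras gene hrasa (1.04). The PI3 kinase subunit genes pik3r2 and pik3cb were not called, with log2 fold changes of 0.95 and -0.08. The phospholipase gene plcg1, the most abundant of the list, changed by 0.22. These genes serve many receptors and are not particular to PDGFs.

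The follicle cell markers moved in the same direction as the ligands. For these, 7 of 9 symbols were matched, and all 6 tested genes were called higher, beside 13.2% of all tested genes, with log2 fold changes from 2.90 to 5.98. The study had already reported fshr, cyp19a1a, amh, inha and inhbaa as up-regulated in these same libraries. The share called was therefore largely known in advance and is no independent result. Their summed level was between 3.17 and 5.27 CPM in PG libraries and between 72.2 and 87.1 in PV libraries, and none of the 7 was at 0 in all PG libraries. The log2 fold changes of pdgfaa and pdgfba lay inside the range of these markers. For example, fshr, the receptor gene for follicle-stimulating hormone, had 5, 4 and 0 counts in PG and 78, 72 and 86 in PV libraries, much like pdgfaa. In contrast, inha, an inhibin subunit gene, had 52, 28 and 9 counts in PG and 247, 197 and 217 in PV libraries and a log2 fold change of 2.90, near that of pdgfba. These examples were chosen with the values known. The other tested markers, amh, inhbaa, cyp19a1a and gsdf, had log2 fold changes of 5.98, 4.55, 3.94 and 3.63.

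Set against the summed counts of the follicle cell markers, the values of the ligands differed. pdgfaa had 33.7, 19.6 and 0.0 counts per 1000 marker counts in the PG libraries and 65.8, 53.8 and 47.3 in the PV libraries, so its PV values stayed above its PG values. These PG values rest on 6, 3 and 0 counts of pdgfaa and are given without counting intervals. How many of all tested genes stay separate on this scale was not determined. pdgfba had 118, 45.8 and 43.5 counts per 1000 marker counts in PG and 40.6, 56.2 and 49.1 in PV libraries. Its stages overlapped on this scale, with PG replicate 1 highest and PV replicate 1 lowest, and they overlapped also without PG replicate 1. The ratio of the summed values, PV over PG, was 2.38 for pdgfaa and 0.595 for pdgfba. These ratios depended on PG replicate 1. Without it, an alternative chosen after seeing the data, they were 3.77 for pdgfaa and 1.05 for pdgfba, so the lower value of pdgfba at the PV stage rested on that library. With any other library left out they were between 2.09 and 2.57 and between 0.461 and 0.656. The sum is led by cyp19a1a, the ovarian aromatase gene, and by gsdf, a somatic growth factor gene, whereas pdgfaa and fshr had nearly the same log2 fold change of 4.90 and 4.66.

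**Figure D5:**
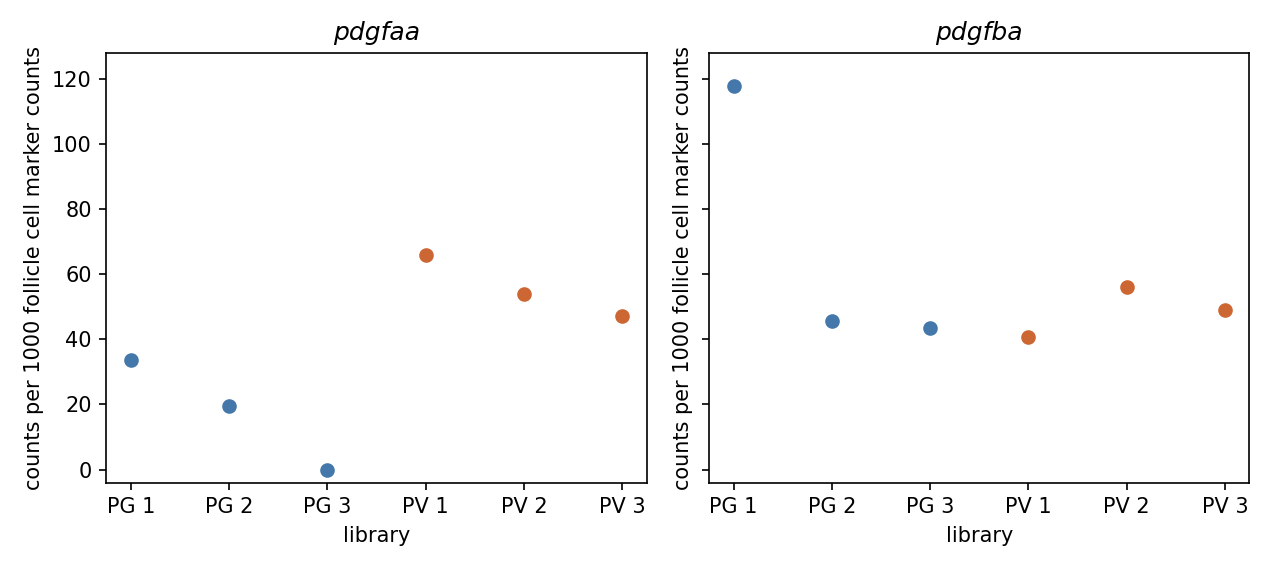
Counts of pdgfaa (left) and pdgfba (right) per 1000 counts of the follicle cell markers in each library, with PG in blue and PV in orange. The PV points of pdgfaa (47.3 to 65.8) lie above its PG points (0.0 to 33.7), whereas those of pdgfba (40.6 to 56.2) lie within the range of its PG points (43.5 to 118) or just below it. The PG points of pdgfaa rest on 6, 3 and 0 counts.

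Other cells that could carry PDGFs or their receptors were looked at in the same way, and their counts stand beside 13.2% of all tested genes called higher and 5.97% called lower. For endothelial cells, 12 of 13 symbols were matched and 7 of 11 tested genes were called higher, with the summed level between 11.0 and 16.6 CPM in PG and between 35.5 and 41.8 in PV libraries. This sum is led by kdrl, which was not called, with a log2 fold change of 0.49 (adjusted p = 0.0532 by edgeR). Also not called were tek (-0.39), sox7 (0.72) and sox18 (0.52). The endothelial genes kdrl and cdh5 were present in every PG library, with at least 68 and 30 counts, whereas plvapa was at 0 in all 6 libraries. Against the endothelial sum, pdgfaa had at most 9.90 counts per 1000 in PG and at least 96.4 in PV libraries, and pdgfba at most 34.7 and at least 90.7. For mural and smooth muscle cells, 7 of 9 symbols were matched, and 4 of 5 tested genes were higher and 1 was lower. Their sum was between 6.07 and 10.8 CPM in PG and between 54.5 and 68.4 in PV libraries, with abcc9 and kcnj8 at 0 in all PG libraries. Against the mural sum, pdgfaa had at most 15.2 counts per 1000 in PG and at least 62.7 in PV libraries. For pdgfba the stages lay close, with at most 53.3 in PG and at least 54.6 in PV libraries. The PV sum is led by notch3, a Notch receptor gene that the study also lists among genes of follicle cells, which made up 54.3% of the counts of the list in PV and 16.4% in PG follicles. Without notch3, a choice made after seeing the data, the sum was between 5.59 and 8.99 CPM in PG and between 26.4 and 30.2 in PV libraries, and the PV to PG ratio of the means was 3.79 in place of 7.10. In the list for theca, stroma and fibroblasts all 11 symbols were matched and 6 of 9 tested genes were higher, with a sum between 232 and 239 CPM in PG and between 227 and 247 in PV libraries and with lum at 0 in PG. This sum is led by cyp17a1, a steroidogenic enzyme gene with a log2 fold change of -0.91, which made up 89.0% of the counts of the list in PG and 62.5% in PV follicles. Without cyp17a1, likewise chosen after seeing the data, the sum was between 18.9 and 28.7 CPM in PG and between 83.2 and 94.2 in PV libraries, a ratio of 3.65 in place of 1.02. Of the PG libraries, PG replicate 3 had the lowest sums for the follicle, endothelial and mural lists. Its counts of pdgfaa (0) and pdgfba (2) were also the lowest, but they lie below 3 counts in the shallowest library. A link to these sums cannot be read from them. The part of these cell types in the rise of the ligands was not tested.

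Thrombocytes are known as a store of PDGF proteins. Of their 5 marker symbols 4 were matched, and itga2b, which defines them, was at 0 in all 6 libraries. Their summed level was between 7.57 and 9.33 CPM in PG and between 4.51 and 5.71 in PV libraries, opposite in direction to the ligands, and 1 of 2 tested genes was called lower, beside 5.97% of all tested genes. For leukocytes and macrophages 5 of 7 symbols were matched. None of the 5 tested genes was called in either direction by edgeR or DESeq2, with none higher and 1 lower at an unadjusted p under 0.05 in edgeR, and the sum was between 7.52 and 8.54 in PG and between 8.70 and 10.3 CPM in PV libraries. For erythrocytes 4 of 6 symbols were matched, of which 2 were called lower, and the sum fell from between 23.9 and 32.4 to between 8.29 and 21.2 CPM. For oocytes 9 of 10 symbols were matched and tested, with 4 called lower and none higher by edgeR or DESeq2 and with 1 higher at an unadjusted p under 0.05 in edgeR. Their sum, led by zp3b, buc and zar1, was between 6950 and 7290 CPM in PG and between 4130 and 4370 in PV libraries.

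By pattern over the 6 libraries, the genes most like pdgfaa in log2 normalized counts were POMGNT1 (ENSDARG00000052025), dbf4b (ENSDARG00000086550) and tor3a (ENSDARG00000079308), with Pearson correlations of 0.9996, 0.9995 and 0.9994. For pdgfba they were dhx33 (ENSDARG00000051785), dnal1 (ENSDARG00000034042) and pias1a (ENSDARG00000036094), with correlations of 0.9991, 0.9984 and 0.9983. The correlation measures shape and not size. The log2 fold change was 0.48 for POMGNT1 and 0.38 for dhx33, and the largest of the 6 was 2.34 for dnal1. With 2 stages any gene that rose resembles another, and 1798 of the 13649 genes compared had a correlation of at least 0.95 with pdgfaa and 1563 with pdgfba. The ligands correlated at 0.984 with each other, and 391 genes were more like pdgfaa than pdgfba was, so the pair did not stand out as alike.

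In the gene order of the RefSeq assembly GRCz12tu, which is not the build of the counts, no annotated gene overlaps pdgfaa or pdgfba. The nearest pair of matched protein-coding genes on either side of each ligand was examined. Next to pdgfaa, vasna, a vasorin gene, was a DEG with a log2 fold change of 1.76 (adjusted p = 9.59e-07 by edgeR), while dnaja3b, which lies between them, changed by 0.12 (adjusted p = 0.286 by edgeR). On the other side the complement genes c3b.2 and c3b.1 changed by -0.79 and -0.20, with adjusted p-values of 0.0855 and 0.819 by edgeR. Next to pdgfba, ncf4, baiap2l2b and adra2a held at most 12 counts in any library and were not tested, and shoc2 changed by -0.06 (adjusted p = 0.710 by edgeR). The genes closest to each ligand in that assembly, dnaja3b and c3b.2 for pdgfaa and ncf4 and the next matched gene adra2a for pdgfba, were thus either not DEGs or not tested.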

How the data were processed

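RNA of PG and PV follicles was sequenced in 3 libraries for each stage as paired reads. Alignment by the authors was to GRCz10 with TopHat2, and they obtained raw counts per gene from StringTie by the prepDE script, a conversion of coverage into read numbers. The deposited normalized counts are a signal, the raw counts divided by 1 DESeq2 size factor per library (0.554 to 1.42). The labels and the methods name different library kits, and whether strand was used in counting is not given in the sources used here. Stages were taken from the sample titles. Both stages came from the same 3 groups of fish, but the sources used here do not say that equal replicate numbers mark the same group.

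Raw counts were tested with edgeR 4.0.16 (R 4.3.3, limma 3.58.1) by its quasi-likelihood test, with stage as the factor, TMM scaling and filterByExpr (minimum count 10, minimum total 15), and p-values were adjusted by Benjamini-Hochberg over 15899 genes. Totals of 14492086 to 36603108 counts set the depth, and 3 counts were taken as the most that a count of 0 allows. On simulated counts for this comparison, 71 of 100 genes changed 2-fold and 92 of 100 changed 4-fold had an adjusted p of 0.05 or less among 15649 genes, with 11 false calls. Exact permutation tests and intervals used scipy 1.17.1. DESeq2 1.42.0, other scalings and filters, a test of fold changes above 2, the replicate number as a block and the omission of each library were alternatives. DESeq2 called 9.48% of the 23051 genes it tested higher. Counts of list genes at an unadjusted p under 0.05 are given without a share of all tested genes at that cutoff.

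The genes and lists were chosen with earlier results of these data known. Symbols came from the supplementary table of the paper or a table of gene names, in that order. All PDGF ligand and receptor genes were named. Of the other pathway lists, the 3 largest calls in each direction and the gene of highest mean count were named. Further genes of the signal transduction list were chosen after their values were seen, as were plat, st14b, the gene called PDGFA, the neighbouring genes and the ratios to marker sums. Similar genes were the 3 of highest Pearson correlation in log2(normalized count + 1) among those with a symbol and a mean of at least 20. Sequences of the genes were not used here.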

Additional observations from a re-analysis of the deposited data

How the results depend on the processing

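The rises of pdgfaa and pdgfba remained DEGs under every alternative that could be run for them. Across scalings, tools and tests, the replicate block included, the log2 fold change ran from 4.87 to 6.02 for pdgfaa and from 2.99 to 4.16 for pdgfba, the highest under scaling by oocyte markers, which moved the median of all genes from 0.03 to 1.19. With a library left out it ran from 4.60 to 5.55 and from 2.78 to 3.81. With at least 10 counts required in every library neither could be tested, which left 1 ligand gene called. The ratio of the ligands rose by 1.60 to 2.22 under other offsets, pairings and fits and by 1.61 to 2.22 with a library left out.

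Of all genes, 3663 were higher and 415 lower under scaling by library totals (89.8% of calls higher, against 68.9%), 9583 and 121 (98.8%) under oocyte markers, 1223 and 614 with at least 10 counts in every library, and 1025 and 410 when tested against a fold change of 2. With a library left out, 1930 to 2214 were higher and 854 to 987 lower. The processing and binding list had 8 genes tested in the main fit. Of it, 4 were called higher under oocyte markers, 1 with the count minimum and 0 against a fold change of 2. The signal transduction list had 25, with 20 called higher under oocyte markers and 5 in the test against a fold change of 2. Of all genes tested, 60.3% were higher under oocyte markers, 9.32% with the count minimum and 6.45% against a fold change of 2. The oocyte markers summed to between 6950 and 7290 CPM in PG and between 4130 and 4370 in PV libraries, a sum led by zp3b, buc and zar1. Scaling by this sum therefore raises every gene at the PV stage relative to scaling by library totals. The cause of the differences between the other settings was not tested.

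With the replicate number as a block, 1983 genes were higher and 860 lower, the log2 fold change was 5.04 for pdgfaa and 3.14 for pdgfba, and the ratio of the ligands rose by 1.91 (exact sign-flip test over 3 pairs, p = 0.25, the smallest possible). Same-numbered libraries had deviations from their stage means that correlated at -0.0149, -0.00508 and 0.023 across 12229 genes, which does not show whether the numbers mark the shared groups of fish, and the libraries were analysed as unpaired. No call on a ligand or receptor gene changed with the block.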
